A study of Mus musculus with 6 samples.

Results

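The 10 genes Zic1, Dmbx1, Barx1, Lhx5, Lhx2, Pax6, Sox1, Nes, Mag and Ncan were followed in mouse embryonic stem cells with and without Dppa2, out of 18516 gene symbols on the array. They were chosen by symbol, with earlier results of the same arrays known, as genes of the nervous system described as derepressed in the knockout. The difference between the mock knockout and wild type chose them, so that difference is given below as a description, with no test. The 10 genes have 14 probes among the 41059 probes analysed, and 12 of the 14 passed the scanner's test of being well above background on 2 arrays or more and could be tested. The other two, a second probe of Mag and a second probe of Pax6, are described by their signals only.

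Each of 3 groups had 2 arrays. The wild-type lines were 15-1+/+ and 15-2+/+ and were not transduced. Both knockout groups were 15-2-/-, which is the loss of Dppa2 (also called ECAT15-2), and were also 15-1CT/CT, that is, homozygous for a conditional targeted allele of ECAT15-1 (Dppa4). The mock knockout cells carried the empty vector piggyBac-CAG-IP, and the Flag-Dppa2 knockout cells carried piggyBac-CAG-Flag15-2-IP, in which the constitutive CAG promoter drives Flag-tagged Dppa2. All lines came from blastocysts of 2 mothers of a mixed 129Sv and C57/BL6 background and were grown on gelatin in serum with LIF. Replicates 1 and 2 of the mock and the Flag-Dppa2 groups are the same 2 knockout lines, called line 1 and line 2 below, so each group rests on 2 lines. A difference from wild type therefore also contains the Dppa4 allele and the vector, while the Flag-Dppa2 and mock groups share both the allele and the vector backbone.

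Dppa2 was at a log2 level of 2.13 and 2.07 in wild type, at -2.05 ± 0.06 (SD, n = 2) in mock and at 0.15 ± 0.29 (SD, n = 2) in Flag-Dppa2, in the order the labels give. A level is the log2 signal minus the array's own 75th percentile of log2 signal, which corresponded to 719.2 to 856.4 intensity units. The 2 wild-type arrays were nearly the same: of 14943 bright spots, 0.442% differed beyond the scanner's 95% limit, against 22.2% for the mock pair and 24.7% for the Flag-Dppa2 pair. Wild type is therefore given by its arrays or their mean, with no error, and may be 1 sample. The wild-type and mock arrays lay on 1 slide and both Flag-Dppa2 arrays on another, so slide and Flag-Dppa2 cannot be told apart. The labels give each group 2 lines with 1 array each, so in the knockout groups the spread is that of lines and arrays together. The fit pools it with the spread of the wild-type pair, which may hold none between lines. SEs, intervals and p-values below may therefore be too small. Fewer cells expressing a gene and less RNA per cell cannot be told apart in bulk RNA.

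Embryonic stem cells model the inner cell mass of the blastocyst and keep the genes of later lineages low or silent. When such cells enter the neural lineage, Sox1 and Pax6 mark the neural plate and its progenitors, Nes marks neural stem cells, and regional homeodomain and zinc finger factors divide the neural tube into territories. Mag and Ncan belong to mature nervous tissue, in myelin and in the extracellular matrix around neurons. Dppa2 is a DNA-binding protein found in pluripotent and germ cells and has been linked to the methylation state of CpG-rich promoters.

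The promoters of the genes with the largest differences were unlike in their CG content. Windows of 250 bases before to 50 after the start site were taken from RefSeq on GRCm38.p6 for 9 of the 10 genes, and 4 are printed 5′ to 3′, with every CG dinucleotide in capitals. Zic1, Dmbx1 and Barx1 are shown because their signals had like profiles over the arrays, and Mag because its promoter differs from theirs.
Zic1, chr9:91365719-91366018, minus strand: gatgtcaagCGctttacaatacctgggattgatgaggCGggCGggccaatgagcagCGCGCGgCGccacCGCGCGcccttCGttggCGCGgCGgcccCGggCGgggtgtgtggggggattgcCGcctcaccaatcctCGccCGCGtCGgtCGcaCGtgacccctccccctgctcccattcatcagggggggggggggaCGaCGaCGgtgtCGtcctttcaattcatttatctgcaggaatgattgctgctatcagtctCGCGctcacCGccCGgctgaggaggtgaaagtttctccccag
Dmbx1, chr4:115939877-115940176, minus strand: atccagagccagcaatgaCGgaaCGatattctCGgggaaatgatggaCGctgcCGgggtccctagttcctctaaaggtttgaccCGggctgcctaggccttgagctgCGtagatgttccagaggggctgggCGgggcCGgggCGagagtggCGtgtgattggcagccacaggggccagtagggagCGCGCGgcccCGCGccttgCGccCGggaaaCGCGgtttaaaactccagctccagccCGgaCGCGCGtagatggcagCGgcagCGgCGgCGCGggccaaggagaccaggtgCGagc
Barx1, chr13:48662786-48663085, plus strand: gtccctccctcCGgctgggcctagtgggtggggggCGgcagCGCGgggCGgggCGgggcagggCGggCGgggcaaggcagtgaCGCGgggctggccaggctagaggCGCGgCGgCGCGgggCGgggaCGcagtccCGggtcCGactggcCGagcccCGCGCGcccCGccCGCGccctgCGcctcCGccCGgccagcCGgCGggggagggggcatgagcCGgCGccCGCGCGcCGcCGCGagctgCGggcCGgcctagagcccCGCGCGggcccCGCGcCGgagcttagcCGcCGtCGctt
Mag, chr7:30914814-30915113, minus strand: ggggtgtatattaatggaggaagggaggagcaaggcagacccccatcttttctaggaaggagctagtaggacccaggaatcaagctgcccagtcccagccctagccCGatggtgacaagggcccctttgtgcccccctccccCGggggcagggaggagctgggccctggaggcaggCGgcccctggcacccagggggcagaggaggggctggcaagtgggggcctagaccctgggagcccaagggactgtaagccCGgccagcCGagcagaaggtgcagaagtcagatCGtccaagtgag
The Zic1 window held 31 CG dinucleotides, the Dmbx1 window 30 and the Barx1 window 50, against a median of 7 and an upper quartile of 20 over 32851 windows of the same length. These counts lay at the 89.4th, 88.3rd and 99.1st percentile. The printed Mag window held 6 CG dinucleotides, at the 43.6th percentile, and the other Mag windows held 3 each. Among the remaining members, Sox1 had 37, the Lhx2 windows 34 and 29, Nes 18, the Pax6 windows 18 and 16, and Ncan 9. The motif GGGCGG, searched on both strands and overlapping a CG dinucleotide, was found in the windows of Zic1, Dmbx1, Barx1, Sox1, Nes and Ncan and in the first Lhx2 window, and in 35.7% of all windows. The motif TATAAA, on both strands, was found in the Ncan window alone among the members and in 13.6% of all windows. These counts describe the sequence, and no methylation or binding was measured here.

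**Figure D1:**
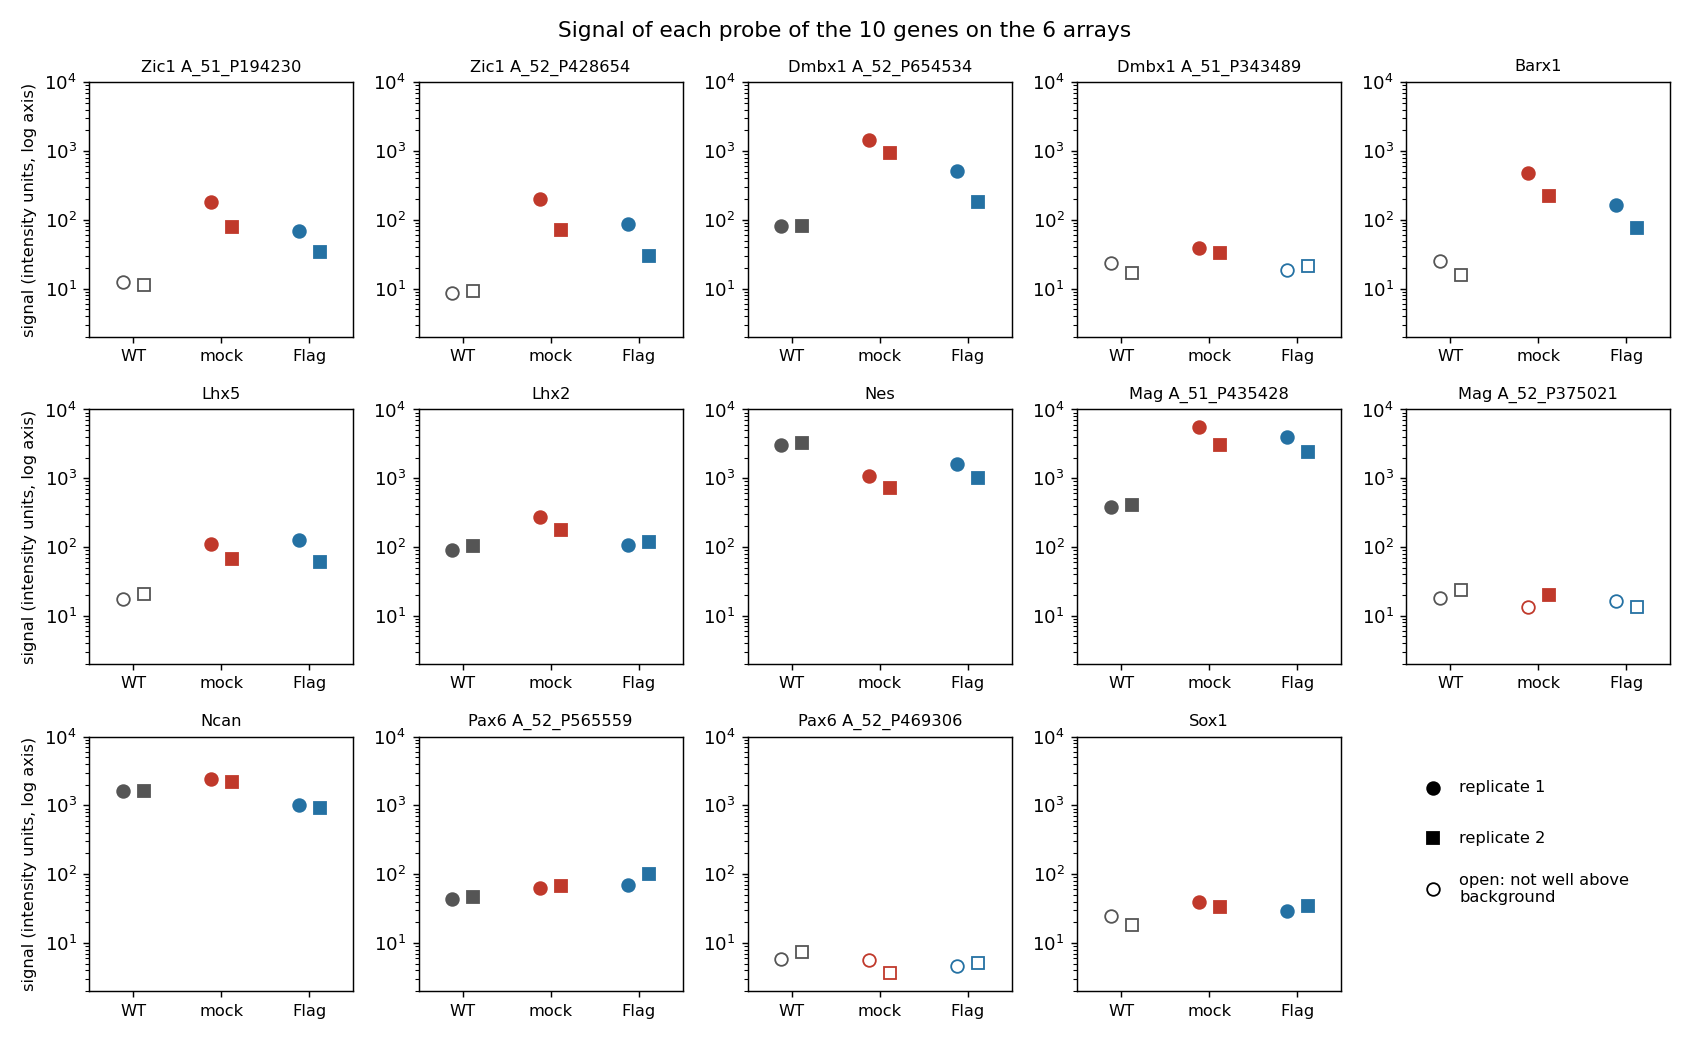
Signal of all 14 probes of the 10 genes in intensity units on a log axis, by group (WT, wild type; mock; Flag, Flag-Dppa2), with replicate 1 as circles, replicate 2 as squares and open symbols for values not well above background. Zic1, Barx1 and Lhx5 had open symbols in wild type and filled symbols in all 4 knockout arrays, and the Nes points were higher in wild type than in any knockout array.

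Among the transcription factors, Zic1, Dmbx1 and Barx1 had the same order of groups, with wild type lowest, mock highest and Flag-Dppa2 between them. The mean levels of Lhx2 and Sox1, described below, had this order too. Zic1 is a zinc finger factor of the dorsal neural tube and cerebellum. On its probe A_51_P194230 the signals were 12.6 and 11.3 in wild type, neither well above background, 181 and 79.2 in mock, and 68.9 and 34.4 in Flag-Dppa2. All 4 knockout arrays were well above background and above both wild-type arrays, and the Flag-Dppa2 arrays lay below the mock arrays. The other Zic1 probe, A_52_P428654, gave 8.49 and 9.12 in wild type, 200 and 70.8 in mock, and 86.3 and 30 in Flag-Dppa2. On this probe the Flag-Dppa2 and mock values overlapped, because line 1 with Flag-Dppa2 was brighter than line 2 with mock.

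The Zic1 differences between mock and wild type were 3.44 and 3.87 on the log2 scale. Since wild type had only a background signal, the size that the data bear is a lower bound. For a bound, the dim group was set on each array to the lowest signal that any probe well above background had there, or to its own signal where that was larger. Such a bound leaves out the scanner's error of each spot, so a small bound does not establish a difference. With normexp background correction, whose offset raises dim signals, the differences were 1.37 and 1.35, and those of Barx1 and Lhx5, described below, were 2.15 and 0.88. The bound was at least 4.48-fold higher and at least 4.44-fold higher in mock for the 2 probes, which report the same gene and are not independent. From mock to Flag-Dppa2 the difference was -1.26 (SE 0.48) on A_51_P194230, with a Benjamini-Hochberg adjusted p of 0.394 in the limma fit over all 24829 probes, and -1.18 (SE 0.66, adjusted p 0.555) on A_52_P428654. Neither was called, where called means an adjusted p under 0.05.

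Dmbx1, a paired-type homeodomain factor of the midbrain and diencephalon, had the largest fold among the members measured in both groups. Its probe A_52_P654534 gave 80.4 and 80.3 in wild type, 1437 and 943 in mock, and 511 and 180 in Flag-Dppa2, all well above background. The 3 groups did not overlap. Mean levels were -3.38 in wild type, 0.59 ± 0.35 (SD, n = 2) in mock and -1.31 ± 0.97 (SD, n = 2) in Flag-Dppa2, so that mock was 15.7-fold above wild type. The difference from mock to Flag-Dppa2 was -1.90 (SE 0.49, 95% interval -3.22 to -0.58), a 3.73-fold lower level with an adjusted p of 0.251. The remaining Dmbx1 probe, A_51_P343489, was dim, with 23.4 and 16.9 in wild type, 39.1 and 32.4 in mock, and 18.5 and 21 in Flag-Dppa2. On this probe only the mock arrays were well above background, and mock was at least 1.33-fold above wild type and at least 1.58-fold above Flag-Dppa2 (adjusted p 0.285). Both probes were higher in mock than in wild type, and the size on the dim probe is known only as that bound. The scanner's errors on the dim probe were 7.01 and 8.3 in wild type and 7.35 and 4.8 in mock. The bound leaves these errors out, so the dim probe alone does not establish a difference.

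Barx1 is a homeodomain factor best known for the branchial arches, the teeth and the stomach mesenchyme, and it is not a defining neural gene. Its signals were 24.9 and 15.9 in wild type, neither well above background, 483 and 223 in mock, and 167 and 76.4 in Flag-Dppa2. The 3 groups did not overlap, and mock was at least 12.2-fold above wild type, with a measured difference of 4.16. Flag-Dppa2 was 2.82-fold below mock (log2 difference -1.50, SE 0.54, 95% interval -2.92 to -0.07), and the adjusted p was 0.372.

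Lhx5 and Lhx2 are LIM homeodomain factors, the first of forebrain and spinal interneurons and the second of forebrain, eye and hair follicle, and they differed in what Flag-Dppa2 showed. The Lhx5 probe gave 17.6 and 20.5 in wild type, neither well above background, 109 and 67.1 in mock, and 126 and 60 in Flag-Dppa2. The mock and Flag-Dppa2 values overlapped, with line 1 above line 2 in both. Lhx5 was at least 3.2-fold above wild type in mock, and the difference from mock to Flag-Dppa2 was 0.06 (SE 0.38, 95% interval -0.96 to 1.09, adjusted p 0.976). This interval holds changes of nearly 1 log2 unit in either direction, and the sign turned with quantile normalization (-0.05), with median centring (-0.06) and in the authors' log2 values (-0.04). The Lhx2 probe was well above background everywhere, at 90.9 and 104 in wild type, 273 and 179 in mock, and 107 and 119 in Flag-Dppa2. Both mock arrays stood above the other 4, with mock 2.46-fold above wild type. Flag-Dppa2 was 1.91-fold below mock (log2 difference -0.94, SE 0.21, 95% interval -1.51 to -0.37), and the adjusted p was 0.207.

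Pax6 and Sox1, the classical factors of neural progenitors, had small differences at low signal. The Pax6 probe A_52_P565559, printed in up to 10 spots per array, gave 43.6 and 47.3 in wild type, 62.9 and 67.8 in mock, and 68.7 and 100 in Flag-Dppa2. All 4 knockout arrays were above both wild-type arrays, and mock was 1.56-fold above wild type. The difference from mock to Flag-Dppa2 was 0.39 (SE 0.26, adjusted p 0.628). The second Pax6 probe, A_52_P469306, had signals of 3.63 to 7.36 and was not well above background on any array. The Sox1 probe gave 24.9 and 18.1 in wild type, neither well above background, 39.5 and 33.5 in mock, and 29.3 and 34.6 in Flag-Dppa2. The Sox1 bound was 1.36-fold above wild type in mock. It leaves out scanner errors of 7.08 and 8.32 in wild type and 7.5 and 5.09 in mock, so it does not establish a difference. From mock to Flag-Dppa2 the Sox1 difference was -0.15 (SE 0.24, adjusted p 0.873). The mock and Flag-Dppa2 signals overlapped for Sox1, and for Pax6 only the scaled levels did.

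Nes, which encodes the intermediate filament protein nestin, went the other way from the label of the set. Its probe, printed in 10 spots per array, gave 3027 and 3258 in wild type, 1080 and 720 in mock, and 1617 and 1000 in Flag-Dppa2. Wild type was higher than every knockout array, and the Flag-Dppa2 and mock signals overlapped, while their levels after scaling did not. Mean levels were 1.91 in wild type, 0.19 ± 0.33 (SD, n = 2) in mock and 0.75 ± 0.40 (SD, n = 2) in Flag-Dppa2, so Nes was 3.29-fold lower in mock than in wild type. The difference from mock to Flag-Dppa2 was 0.57 (SE 0.26, adjusted p 0.474). Nestin is also made by mesenchymal cells, and most fibroblast and feeder markers tested were also lower in mock. Of 12 such markers 11 were tested, and only 1 of the 11 was higher in mock than in wild type. Their median difference was -2.54, beside 0.04 for all probes. Fbn1, Mmp2 and Loxl1 were called lower in mock than in wild type and higher in Flag-Dppa2 than in mock. These 3 are 27.3% of the list in each comparison, against 3.19% and 0.524% of all probes. The list's summed level, in units of the 75th percentile, was 14.9 to 15.1 in wild type, 11.9 to 13.2 in mock and 16 to 17.7 in Flag-Dppa2. Acta2 alone made up 55.7% to 57.4% of it in wild type and 78.3% to 82.4% in the knockout arrays. Col1a1 was at 0.78 and 0.75 in wild type, -1.69 and -3.54 in mock, and -1.56 and -3.87 in Flag-Dppa2. It was thus lower in mock, like most of the list. From mock to Flag-Dppa2, 9 of the 11 were higher (median 0.59, beside -0.01 for all probes), and Col1a1 was not (difference -0.10). Mmp2 was at -0.33 and -0.36 in wild type, -4.37 and -4.87 in mock, and -0.68 and -0.75 in Flag-Dppa2. None of these 3 was called with the wild-type arrays averaged. The part of such cells in the Nes values was not tested.

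Mag encodes the myelin-associated glycoprotein of oligodendrocytes and Schwann cells. Its probe A_51_P435428 gave 376 and 410 in wild type, 5566 and 3096 in mock, and 4031 and 2446 in Flag-Dppa2. All 4 knockout arrays were far above both wild-type arrays, and the mock and Flag-Dppa2 values overlapped. Mean levels were -1.09 in wild type, 2.42 ± 0.52 (SD, n = 2) in mock and 2.06 ± 0.42 (SD, n = 2) in Flag-Dppa2, so mock was 11.4-fold above wild type. The difference from mock to Flag-Dppa2 was -0.36 (SE 0.33, 95% interval -1.23 to 0.51, adjusted p 0.74). The other Mag probe, A_52_P375021, gave 13.2 to 24 and was well above background on 1 array, mock replicate 2. No difference could be measured on it, so the Mag values rest on 1 of 2 probes.

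Ncan encodes neurocan, a chondroitin sulphate proteoglycan of the brain matrix, and its 2 arrays lay close together in each group. Its signals were 1643 and 1618 in wild type, 2405 and 2219 in mock, and 1020 and 915 in Flag-Dppa2. The 3 groups did not overlap, and Flag-Dppa2 was the lowest of them. Mock was 1.53-fold above wild type. Flag-Dppa2 was 2.32-fold below mock, a log2 difference of -1.22, which is given without a test because it was known when Ncan was chosen.

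**Figure D2:**
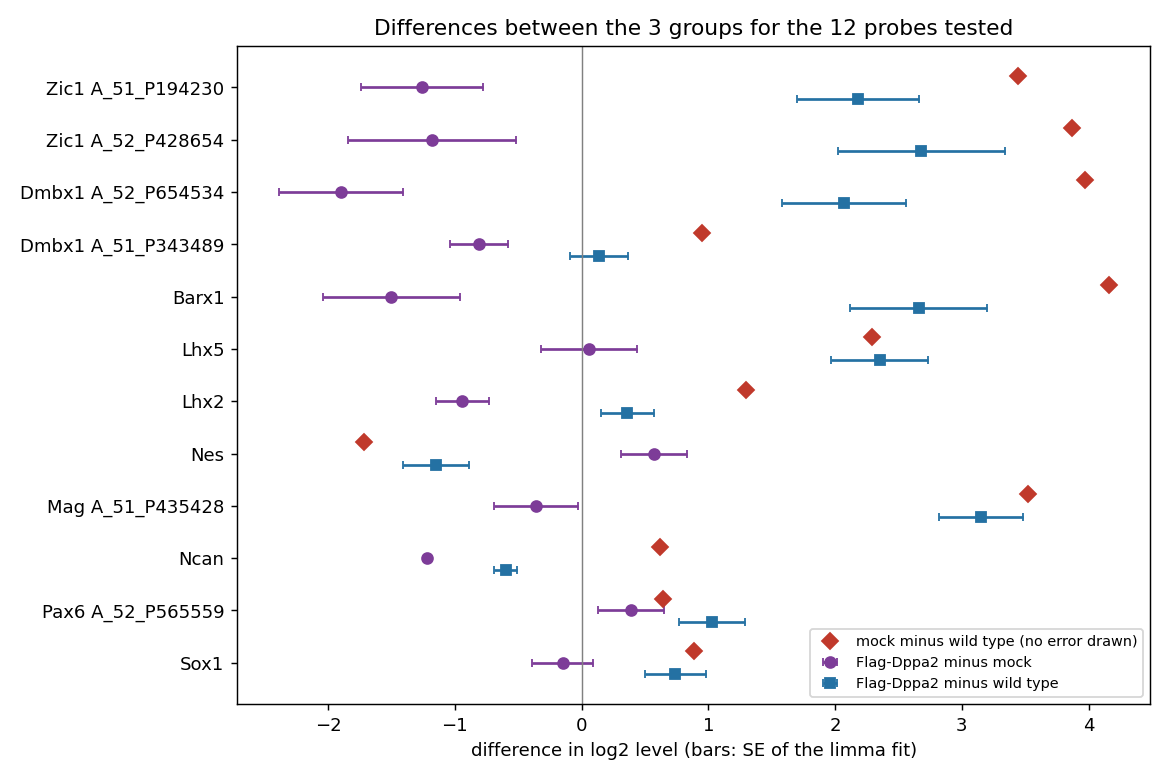
Differences in log2 level for the 12 probes tested: mock minus wild type (diamonds, no error drawn), Flag-Dppa2 minus mock (circles) and Flag-Dppa2 minus wild type (squares), with bars for the SE of the limma fit and none for the circle of Ncan. Diamonds run from -1.72 for Nes to 4.16 for Barx1, and the squares of Zic1, Dmbx1 A_52_P654534, Barx1, Lhx5 and Mag lie at 2.07 to 3.15.

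The comparison of Flag-Dppa2 with mock asked whether the genes moved when Dppa2 was returned, and it shares the mock arrays with the contrast that chose them. None of the 11 probes tested was called, and 4 had an unadjusted p under 0.05 (both Dmbx1 probes, Barx1 and Lhx2), where 12.8% of all probes had one. This limma fit also uses the spread of the wild-type pair. With only the 4 knockout arrays, the adjusted p of Dmbx1 A_52_P654534 was 0.595, against 0.251. That of Lhx2 was 0.542, against 0.207. Over all probes tested, 0.548% were called (136 of 24829), of which 130 were higher and 6 (0.0242% of all probes) lower with Flag-Dppa2. The main fit does not pair the arrays of a line. With the replicate number as a block 4 probes were called. That block pairs the arrays of a knockout line, but it also ties the wild-type arrays to those lines, which they are not. In the 4 knockout arrays alone, with the block, no probe was called. Both Flag-Dppa2 arrays lay below both mock arrays for 6 of 12 probes, of Zic1, Dmbx1, Barx1, Lhx2 and Ncan, or 5 of 11 without Ncan, against 19.2% of all probes. Mock levels enter both this comparison and the choice of the genes. The dim Dmbx1 probe was well above background on the mock arrays only. It could be tested only because mock was high, so a lower Flag-Dppa2 value was favoured for it by the filter. It is part of the counts above, which are no test of an effect of Flag-Dppa2.

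Within the knockout lines, 5 genes were lower with Flag-Dppa2 by at least 0.5 log2 units in line 1 and in line 2. The differences in line 1 and line 2 were -1.37 and -1.15 and, on the second probe, -1.18 and -1.19 for Zic1. They were -1.46 and -2.34 for the brighter Dmbx1 probe, -1.05 and -0.57 for the dim one, and -1.50 and -1.49 for Barx1. They were -1.32 and -0.55 for Lhx2 and -1.21 and -1.23 for Ncan. Each difference subtracts a mock array that also entered the choice of the genes, so a fall was favoured in advance. The dim Dmbx1 probe also passed the background filter through the mock arrays only. Under this limit, set after the values were seen, 7 of 12 probes were lower in both lines, or 6 of 11 without Ncan, against 3.02% of all probes. These counts describe the values and are no test of an effect of Flag-Dppa2. Lhx5 (0.24 and -0.11), Mag (-0.43 and -0.29), Nes (0.61 and 0.52), Pax6 (0.16 and 0.62) and Sox1 (-0.40 and 0.09) did not meet that limit.

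The values of the lines differed for 4 genes under the same limit, counted only where line 1 was the higher. Each line has 1 array per group, and the difference was not tested. Line 1 was above line 2 by at least 0.5 log2 units in both mock and Flag-Dppa2 on 5 of 12 probes, of Zic1, Barx1, Lhx5 and Mag, against 9.54% of all probes. For Barx1 the difference between lines was 1.00 in mock and 0.99 in Flag-Dppa2, and for Zic1 A_52_P428654 it was 1.38 and 1.39. The Mag difference between lines was 0.73 in mock and 0.59 in Flag-Dppa2. For Ncan it was 0.00 and 0.02. Nes (0.47 and 0.56) and the brighter Dmbx1 probe (0.49 and 1.37) fell just short of the limit in mock. Deviations from the group mean were correlated at 0.58 over 24829 probes between the mock and the Flag-Dppa2 array of a line, a value that describes the pairing.

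**Figure D3:**
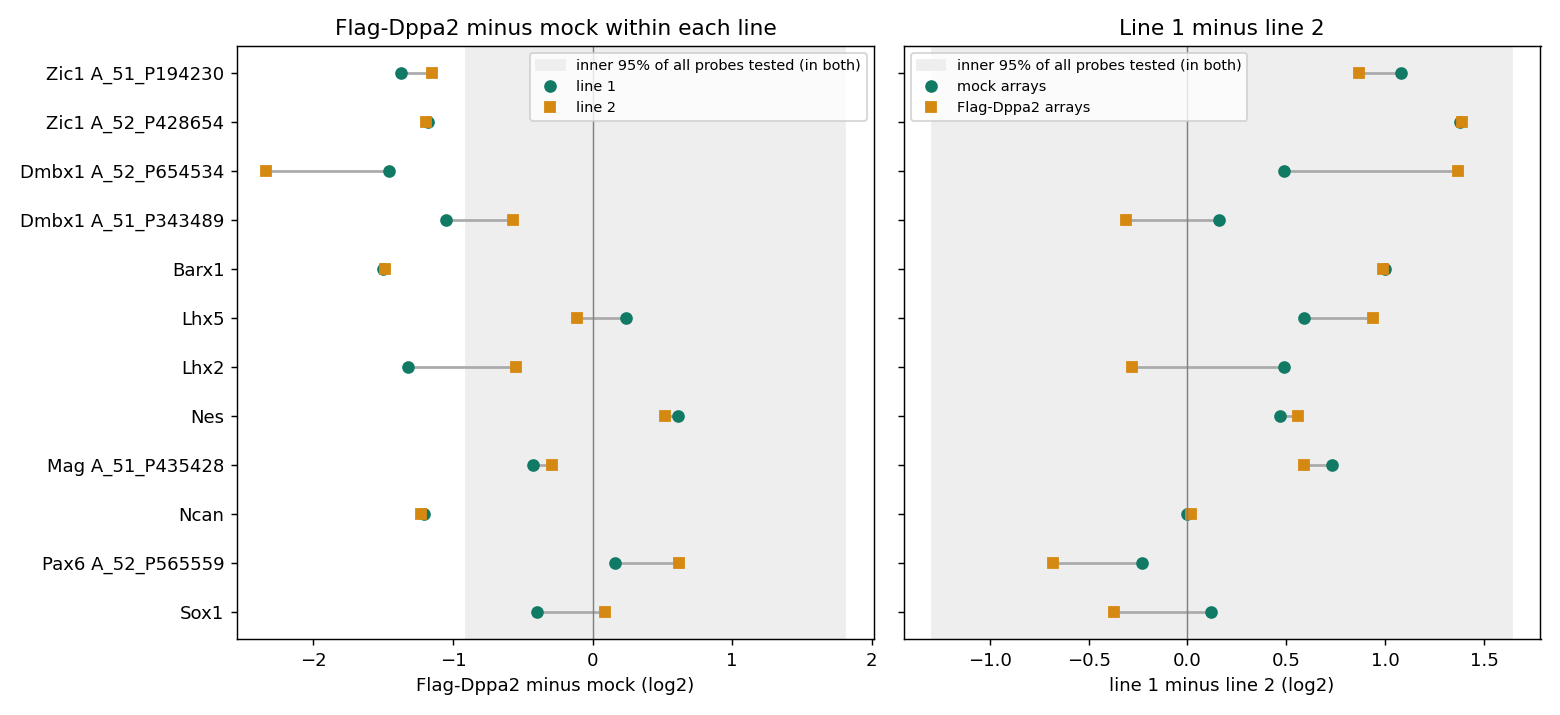
Differences in log2 level for the 12 probes tested, as Flag-Dppa2 minus mock within line 1 and line 2 (left) and as line 1 minus line 2 in mock and Flag-Dppa2 arrays (right), with grey for the inner 95% of all probes tested in both. On the left both points of Zic1, Barx1 and Ncan and of the brighter Dmbx1 probe lie beyond -1, and on the right the points of Zic1, Barx1, Lhx5 and Mag lie above 0.5.

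The comparison of Flag-Dppa2 with wild type gave the distance left after the return of Dppa2, and it shares the wild-type arrays with the contrast that chose the genes. Dppa2 itself stayed below wild type on its probe, at mean levels of 0.15 with Flag-Dppa2 and 2.10 in wild type. That probe was well above background on all 6 arrays, also in the mock knockout. Whether it reads the native and the Flag-tagged transcript alike was not tested. Among the 12 probes tested none was called, where 0.576% of all probes were, and 10 had an unadjusted p under 0.05, where 21.2% of all probes had one. Both Flag-Dppa2 arrays were above both wild-type arrays for 9 probes of 8 genes, where 32.2% of all probes were. Wild-type levels entered the choice of the genes, so a distance from wild type was favoured in advance. The probes of Zic1, Barx1, Lhx5 and Sox1 and the dim Dmbx1 probe passed the background filter through knockout arrays only. The counts also include Ncan, whose values were known when it was chosen. They describe the values and are no test of a remaining difference. Mag had the smallest adjusted p, at a difference of 3.15 (SE 0.33, 95% interval 2.28 to 4.02), an 8.89-fold higher level in Flag-Dppa2 with an adjusted p of 0.0534. Its adjusted p ranged from 0.0331 to 0.487 over the alternatives and was under 0.05 in 3 of 16 settings. Lhx5 was at least 3.34-fold higher (difference 2.35, SE 0.38, adjusted p 0.0829) and Barx1 at least 4.33-fold higher (2.66, SE 0.54, adjusted p 0.102).

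The remaining genes stood above or below wild type without a call. The brighter Dmbx1 probe was 4.2-fold higher in Flag-Dppa2 (difference 2.07, SE 0.49, adjusted p 0.127). The Zic1 probes were higher by at least 1.87-fold (adjusted p 0.114) and by at least 1.95-fold (adjusted p 0.131). Pax6 was 2.04-fold higher (adjusted p 0.133), Sox1 at least 1.22-fold higher (adjusted p 0.189), and Lhx2 differed by 0.36 (95% interval -0.21 to 0.93, adjusted p 0.401). Nes was 2.22-fold lower (difference -1.15, SE 0.26, adjusted p 0.118). Ncan was 1.52-fold lower (difference -0.60). This is a description only, since its differences between mock and both other groups were known when it was chosen. For the dim Dmbx1 probe neither group was well above background, so no fold is given.

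The 10 genes were set beside 122 other neural genes in 11 lists, of which 75 could be tested. Between mock and wild type 1 of the 75 was called higher and 7 lower, which is 1.33% and 9.33%, against 2.09% and 3.19% of all probes (5.29% in either direction, 520 higher and 793 lower). With median centring these totals were 1963 higher and 774 lower, and with quantile normalization 814 and 786. The median difference of the 75 genes was -0.18, beside 0.04 for all probes tested, and it was -0.50 without mock replicate 1 and 0.13 without mock replicate 2. It was 0.05 under median centring, beside 0.27 for all probes. None of the 8 calls was made when either wild-type array was left out or both were averaged into 1 sample. Without mock replicate 1 there were 3 calls and without mock replicate 2 there were 2, all lower in mock. Of the 75 genes, 21 (28%) had an unadjusted p under 0.05, near the 26.7% of all probes.

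The gene that rose was Isl1, a LIM homeodomain factor of motor neurons and heart progenitors. Its levels were -5.07 and -5.13 in wild type, not well above background, -3.46 and -3.24 in mock, and -4.54 and -4.03 in Flag-Dppa2. The mock value was at least 2.83-fold higher than wild type (difference 1.75, SE 0.21, adjusted p 0.0281). Of the Zic family, Zic2, a factor of the early neural plate, fell, with -3.58 and -4.12 in wild type, -5.61 and -6.24 in mock, and -3.79 and -3.54 in Flag-Dppa2 (at least 2.83-fold lower in mock, adjusted p 0.0412). This is the opposite sign to Zic1. Zic4 and Zic5 were not well above background on 2 arrays.

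The other LIM homeodomain genes had differences of either sign. Lhx1 fell by 0.84 on the log2 scale (adjusted p 0.0445), with mock replicate 1 not well above background, Lhx6 differed by 0.18 (adjusted p 0.353), and Isl2 by 2.06 with an SE of 0.99 (adjusted p 0.274). Isl2 was at 0.12 in line 1 and -2.39 in line 2 with mock, against -3.08 and -3.31 in wild type, so a single line carried most of its difference. Lhx3, Lhx4, Lhx8, Lhx9, Lmx1a and Lmx1b could not be tested.

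In the lists nearest to Mag and Ncan the called genes were lower in mock. Mbp, the myelin basic protein, fell 2.92-fold (adjusted p 0.0138), from -0.39 and -0.38 in wild type to -1.82 and -2.04 in mock. It was the 1 gene called among 9 tested in the myelin and oligodendrocyte list, whose median was -0.40. Of 5 genes tested in the perineuronal matrix list, Acan, the proteoglycan aggrecan, fell 5.72-fold (adjusted p 0.01). Hapln3, a link protein in this list, fell 2.2-fold (adjusted p 0.0427). Nefm, the medium neurofilament chain, was at -0.53 and -0.51 in wild type and not well above background in mock, at least 28.5-fold lower (adjusted p 0.0267). No gene was called among 14 tested of the neural plate list, 7 of the proneural list, 11 of the radial glia list, 8 of the neural crest list and 1 of the Pax list.

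Between Flag-Dppa2 and mock, none of the 75 genes was called by limma and 11 (14.7%) had an unadjusted p under 0.05, beside 12.8% of all probes. Their median difference was 0.14, beside -0.01 for all probes. Zic2 differed by 2.26 (SE 0.30, adjusted p 0.0884), at least 3.23-fold higher in Flag-Dppa2. Between Flag-Dppa2 and wild type none was called, 17 (22.7%) had an unadjusted p under 0.05 beside 21.2% of all probes, and the median was 0.06 beside 0.02.

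**Figure D4:**
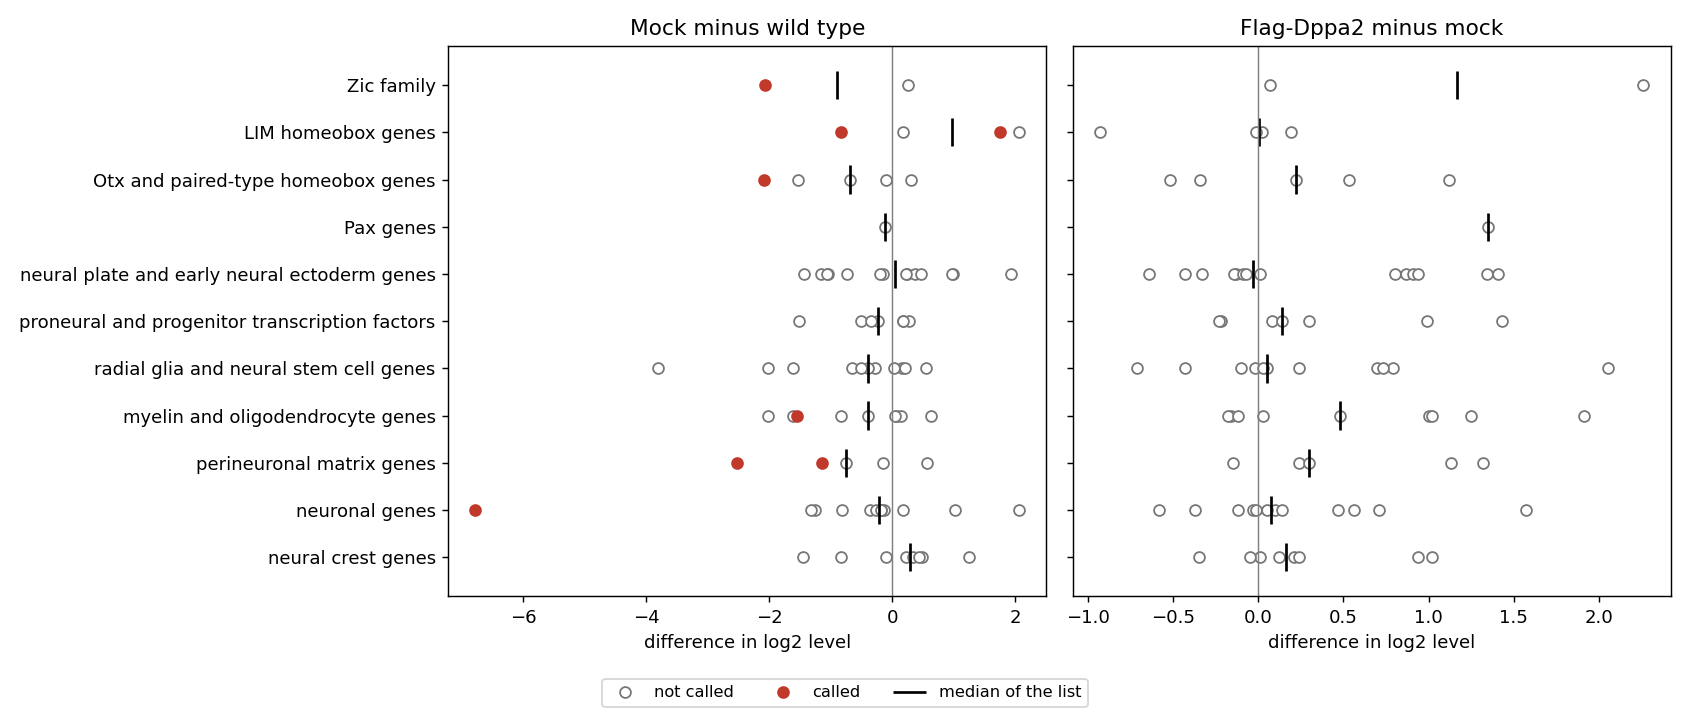
Differences in log2 level of the tested genes of the 11 neural lists without the 10 members, for mock minus wild type (left) and Flag-Dppa2 minus mock (right); each point is a gene, filled red where called, and bars are list medians. On the left 1 point right of 0 (Isl1) and 7 left of it are red, down to -6.78 for Nefm, and on the right no point is red.

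Markers of the stem cell state and of other lineages were measured beside these genes. Of 10 pluripotency markers 8 were tested, all 8 were well above background on every array, and their summed level was 497 to 509 in wild type, 627 to 697 in mock and 608 to 686 in Flag-Dppa2, in units of the 75th percentile. Dppa5a alone made up 70.9% to 77.4% of that sum. No pluripotency, mesoderm, endoderm or trophectoderm marker was called by limma in any of the 3 comparisons, where 31 such genes were tested. An unadjusted p under 0.05 was held by 9 of them (29%) in mock against wild type, beside 26.7% of all probes, by 8 (25.8%) in Flag-Dppa2 against mock, beside 12.8%, and by 11 (35.5%) in Flag-Dppa2 against wild type, beside 21.2%. Neural crest genes had summed levels of 4.95 to 5.02 in wild type, 7.68 to 11.5 in mock and 7.14 to 9 in Flag-Dppa2, and neural plate genes 59.1 to 59.6, 34.7 to 57.9 and 49.9 to 73.1. Ngfr held 62.4% to 80.3% of the crest sums and Pou3f1 38.2% to 65.6% of the plate sums. Trophectoderm markers summed to 78.1 to 78.9 in wild type, 27.4 to 48 in mock and 43.5 to 142 in Flag-Dppa2, with Krt18 at 47% to 59.2% of the sum. The part of such cells in the values of the 10 genes was not tested.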

How the data were processed

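Total RNA was labelled with Cy3 and hybridised to 1-colour Agilent whole mouse genome arrays. Per the file headers, the deposited intensity values were made with Feature Extraction 10.7.3.1 (protocol GE1_107_Sep09), which subtracts background and removes spatial trends. The deposited log2 values of the series matrix, made by the authors with GeneSpring GX 11 per the labels, were used as an alternative. All their column medians were 5.84, and they correlated with the scanner's log2 values at 0.9997 or more.

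Of 45018 spots, 1639 control spots and those with an outlier flag were left out, replicate spots were averaged, and of 41174 probes the 115 without a usable spot on every array were dropped. Between 55.89% and 60.35% of probes were well above background per array, no spot was saturated, and the lowest signals well above background were 14.65 to 31.94. Probes were named through their RefSeq accessions and a GRCm38 table, which gave 27143 probes a symbol and left 13916 without. The files name build mm9, so promoter coordinates are those of the RefSeq table and not of the probes.

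Log2 signals were scaled by subtracting the array's 75th percentile, and the 24829 probes well above background on at least 2 arrays were fitted with limma 3.58.1 in R 4.3.3 (lmFit and eBayes, all 6 arrays, prior degrees of freedom 1.48, residual 3, two-sided, Benjamini-Hochberg over all probes). The fit was tested on simulated data with independent noise, equal across the groups. That checks the code and not the shared lines or the near-identical wild-type pair of these arrays. List counts take the brightest tested probe of a gene. Per the labels, equal numbers in mock and Flag-Dppa2 mean the same line. The correlations of deviations were 0.58 for them and -0.02 and 0.01 for wild type with mock and with Flag-Dppa2, and the fit without a block was kept. The normexp alternative (offset 50) used the median spot signal.

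The members, lists, tests and alternatives were chosen with earlier results of these data known. Named are all member probes, the whole Zic and LIM homeobox families, at most 4 called genes of every other list by absolute difference, and the 3 genes with the nearest profile to each of 5 members. Some genes that this rule names are not reported here. Pou5f1 is named outside this rule, after its values were seen. The limit of 0.5 log2 units, the counts of groups that do not overlap and the GC and TATA motifs were also chosen after values were seen.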

Additional observations from a re-analysis of the deposited data

Results flagged for a closer look

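For Lhx5 the difference from mock to Flag-Dppa2 was 0.24 in line 1 and -0.11 in line 2, so the knockout lines went opposite ways. For Sox1 it was -0.40 in line 1 and 0.09 in line 2. The difference between the lines was not tested, each value rests on 1 array per group, and the Sox1 signals of 29.3 to 39.5 in the knockout arrays were close to the background limit.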

How the results depend on the processing

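The 1313 probes called between mock and wild type became 2737 with median centring, 2098 with an intensity trend, 573 with the replicate block, 459 with no filter on dim probes and 0 with the wild-type arrays averaged, and 0 to 1061 when 1 array was left out, with 0 when it was either wild-type array. The 136 between Flag-Dppa2 and mock became 51 with normexp, 50 with no filter, 25 with probes above background on all arrays, 4 with the replicate block, 0 with wild type averaged, 0 in the 4 knockout arrays with and without the block, and 0 to 96 without 1 array. The 143 between Flag-Dppa2 and wild type became 474 with normexp, 302 with the trend, 45 with probes above background on all arrays, 7 with no filter, 0 with the replicate block, 0 with wild type averaged, and 0 to 20 without 1 array. Of the other neural genes, the 8 called between mock and wild type became 3 with no filter, 4 above background on all arrays, 4 with the replicate block, 0 with wild type averaged and 0 to 7 without 1 array, and 3 were called between Flag-Dppa2 and wild type with normexp, against 0. Among member probes 1, Mag, was called between Flag-Dppa2 and wild type with normexp (2.98, adjusted p 0.0331), median centring (3.27, 0.0405) and the trend (3.15, 0.0401). The replicate block called no member probe tested between Flag-Dppa2 and mock or wild type.

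Normexp, whose offset raises dim signals, lowered the differences between mock and wild type to 1.37 and 1.35 for Zic1, 2.96 and 0.40 for Dmbx1, 2.15 for Barx1, 0.88 for Lhx5, 0.95 for Lhx2, 0.39 for Pax6 and 0.37 for Sox1. Between Flag-Dppa2 and mock, Lhx5 turned to -0.05 with quantile normalization, -0.06 with median centring, -0.04 in the authors' values, -0.23 without mock replicate 2 and -0.41 without Flag-Dppa2 replicate 1, in a range of -0.41 to 0.53 over arrays left out. Mag ranged from -0.73 to 0.00 (without mock replicate 1) and Sox1 from -0.34 to 0.03 (without Flag-Dppa2 replicate 1). The dim Dmbx1 probe went from 0.14 to -0.13 without wild-type replicate 2 and to -0.02 without Flag-Dppa2 replicate 2, in a range of -0.13 to 0.41, between Flag-Dppa2 and wild type. The cause was not tested. Median centring moved the median of all probes to 0.27, -0.13 and 0.14 in the 3 comparisons. Of the alternatives for tested single probes, 362 kept direction and side of the threshold, 9 reversed and 3 passed the threshold; of those described without a test, 199 kept their value within the spread and 15 moved. No slide block could be fitted for the Flag-Dppa2 comparisons, and within the slide of wild type and mock 1061 probes were called. Signals near background limit Zic1, Barx1, Lhx5, Sox1 and the dim Dmbx1 probe in wild type to a bound.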

Other observations

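Genes with the profile nearest to the members over the 6 arrays were found among all tested probes with a symbol, by the root mean square difference of log2 levels centred on their mean. The nearest to Zic1 were Pcdhb14, a clustered protocadherin (0.23), Hoxa7, a homeobox gene of trunk patterning (0.30), and Barx1 (0.33). In wild type, mock and Flag-Dppa2 the mean levels were -7.15, -3.57 and -4.91 for Pcdhb14 and -3.88, -1.04 and -1.95 for Hoxa7. The nearest to Dmbx1 were Barx1 (0.36), Zic1 (0.36) and Pcdhb14 (0.47), and the nearest to Barx1 were Zic1 (0.30), Dmbx1 (0.36) and Pcdhb14 (0.43), so these genes chose each other.

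The profile of Lhx5 was nearest to Slc35b4 (0.27) and Kbtbd11 (0.30). Their mean levels in mock and Flag-Dppa2 were -0.07 and 0.16 for Slc35b4 and -2.12 and -2.16 for Kbtbd11. Mag was nearest to Abca1, a cholesterol exporter (0.40), Zic1 (0.45) and Pcdhb14 (0.49). The arrays share 2 knockout lines and a nearly identical wild-type pair, so the likeness describes these 6 arrays. Zic1, Barx1, Lhx5 and Pcdhb14 were at background in wild type, so their wild-type part of the likeness has no measured size.

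Pou5f1, which encodes a core pluripotency factor, was at 3.01 and 2.67 in wild type, at 3.57 and 3.68 in mock and at 5.37 and 4.84 with Flag-Dppa2. Its differences were not called (adjusted p 0.126 for mock against wild type, 0.113 for Flag-Dppa2 against mock and 0.0524 for Flag-Dppa2 against wild type). Of the 8 pluripotency markers tested, Pou5f1 was the only 1 higher in Flag-Dppa2 than in mock, where 48.4% of all probes were higher. The median of the 8 was -0.23, beside -0.01 for all probes. Against wild type, 7 of the 8 were higher in mock and 6 in Flag-Dppa2, beside 54% and 52.4% of all probes.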
